A study of Mus musculus with 44 samples.

Results

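Collagens are the main structural proteins of the extracellular matrix, and the members described here are the 44 mouse protein-coding genes whose symbols have the form Col, a type number, a and a chain number. They were taken from the RefSeq annotation of the mm10 build, which holds 21887 protein-coding genes on the chromosomes used. By the kind of assembly their chains form, they comprise 11 fibrillar genes, 6 of the basement membrane network, 6 of beaded filaments, 4 of anchoring fibrils and hexagonal networks, 9 fibril-associated genes (FACITs), 4 transmembrane genes, 2 multiplexins and 2 others. For each gene, the bases covered by histone-mark peaks around its promoter were read in every library.

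Each collagen molecule is a triple helix of chains, which are hydroxylated in the endoplasmic reticulum, folded with the help of a chaperone, secreted, trimmed and cross-linked. Fibrillar types I, III and V form the scar tissue of injured liver and are made there mainly by stellate cells and portal fibroblasts. Type IV collagen forms sheets in basement membranes, on which bile duct cells rest together with laminins, nidogens and perlecan. Type XVIII collagen, which carries endostatin at its end, is known as a collagen that hepatocytes themselves produce.

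The study used Rosa26-LSL-Cas9-EGFP mice given AAV8-TBG-Cre, a virus in which a hepatocyte promoter drives Cre, so that hepatocytes and the cells derived from them carry EGFP. The virus was given at 5e11 genome copies per mouse in all 5 stages. Hep libraries came from normal-diet hepatocytes isolated on a Percoll gradient. The 3 sorted EGFP+ stages came from mice fed 0.1% DDC, a diet that injures bile ducts, for 8 to 9 weeks from 1 week after the virus. Early cells were CD24-, intermediate cells were CD24+ EPCAM- and late cells were CD24+ EPCAM+. BEC libraries held EGFP- EPCAM+ biliary epithelial cells sorted from the DDC-fed livers. In any comparison with Hep cells, stage cannot be told apart from the diet and the way the cells were isolated. H3K4me3, the mark of active promoters, H3K27ac, the mark of active promoters and enhancers, H3K4me1, the mark of enhancers, and H3K27me3, the mark of Polycomb repression, were each profiled in 11 libraries, with 2 of each stage and 3 of the late stage. The labels do not say that replicates came from separate animals, so p-values measure only the spread between these libraries.

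The H3K4me3 lists held 19356 to 33762 peaks each, the H3K27ac lists 23511 to 51807, the H3K4me1 lists 12785 to 77991 and the H3K27me3 lists 2343 to 16597, and the read depth behind them is unknown. Values below give how many base pairs (bp) were covered by peaks, counted up to 2500 bp on each side of the promoter, or up to 25000 bp for H3K4me1. Median peak length in a library was 89 to 486 bp for H3K4me3, and the libraries with the shortest peaks, some under 100 bp, were intermediate 1 and late 1 for H3K4me3, late 1 for H3K27ac and H3K27me3, and late 1 and late 3 for H3K4me1. A value of 0 says that no peak was listed, not that the mark was absent. P4hb, which encodes a subunit of collagen prolyl hydroxylase, lay in a stretch of 148374 bp without a peak of any mark in any library, although most cells use this gene. Among collagens, such stretches held Col22a1 (159673 bp), Col5a2 (105817 bp), Col20a1 (55275 bp), Col17a1 (45339 bp), Col28a1 (34480 bp), Col10a1 (28013 bp), Col9a1 (24429 bp), Col6a4 (17242 bp) and Col7a1 (15925 bp), measured at the annotated start of each gene except Col22a1 and Col5a2. Those had no annotated start or strand here and were measured at the lower gene coordinate, which need not be the promoter end.

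The stage labels were checked against markers. Of 10 hepatocyte marker promoters, all 10 carried H3K4me3 in Hep libraries, 8 to 10 in early, 8 to 10 in intermediate, 7 to 8 in late and 4 to 5 in BEC libraries. Of 10 biliary marker promoters, 2 to 4 carried H3K4me3 in Hep libraries, 4 to 5 in early, 9 to 10 in intermediate and late and all 10 in BEC libraries. Markers of other liver cells were also counted, because stellate cells and fibroblasts are the main collagen producers of the liver. Of 14 stellate and fibroblast markers, 1 to 2 had an H3K4me3 peak in Hep libraries, 1 in early, 4 to 6 in intermediate, 3 to 5 in late and 3 to 4 in BEC libraries. Their summed coverage was 489 to 996 bp in Hep, 530 to 765 bp in early, 714 to 2354 bp in intermediate, 305 to 2110 bp in late and 2008 to 2840 bp in BEC libraries. Of the 14, 8 (Pdgfrb, Pdgfra, Des, Dcn, Lum, Acta2, Thy1 and Tcf21) were at 0 in all 11 H3K4me3 libraries. Of the 5 tested, limma called Rgs5 (4.16, SE 0.65, adjusted p = 0.000565) and Postn (2.05, SE 0.57, adjusted p = 0.0233, 0.149 after quantile normalization) higher in BEC against Hep cells. Rgs5, a pericyte marker, was also called in late against Hep (2.31, SE 0.59, adjusted p = 0.0276) and late against early cells (adjusted p = 0.0449). Of 10 endothelial markers, 0 to 1 had H3K4me3 in Hep, early and intermediate, 0 to 2 in late and 0 in BEC libraries. Pecam1 and Cdh5 had no H3K4me3 peak. H3K27ac was listed at 2 endothelial markers in Hep, 0 to 1 in early and late and 0 in other libraries. Of 10 macrophage and Kupffer markers, 0 to 1 had H3K4me3 in Hep, early and intermediate libraries and 1 in each late and BEC library. The 6 mesothelial markers summed to 0 to 334 bp in Hep, 597 to 845 bp in early, 466 to 735 bp in intermediate, 98 to 987 bp in late and 1595 to 1902 bp in BEC libraries. The summed coverage of the stellate and mesothelial lists was higher in BEC than in Hep libraries, as were several collagen values below. The part of cells with any of these markers in the collagen values was not tested.

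Few collagen promoters carried H3K4me3 in Hep and early cells, and more did so in intermediate, late and BEC cells. A peak was found at 7 to 12 of the 44 promoters in Hep, 9 to 10 in early, 14 to 17 in intermediate, 15 to 19 in late and 14 to 17 in BEC libraries. As shares, these averaged 21.6% ± 8.04 in Hep, 21.6% ± 1.61 in early, 35.2% ± 4.82 in intermediate, 40.2% ± 5.25 in late and 35.2% ± 4.82 in BEC cells (SD, n = 2, 2, 2, 3 and 2). Among all protein-coding genes the same shares averaged 51.4%, 52.0%, 57.6%, 57.0% and 56.2%. In such bulk libraries, more marked cells and more of the mark per cell cannot be told apart. H3K27ac was at 2 collagen promoters in each Hep library, 1 to 2 in early, 6 to 11 in intermediate, 3 to 11 in late and 6 to 8 in BEC libraries. Its share among collagens averaged 4.55% in Hep, 3.41% in early, 19.3% ± 8.04 in intermediate, 17.4% ± 9.46 in late and 15.9% ± 3.21 in BEC cells, against 48.8%, 36.3%, 49.4%, 49.2% and 47.3% of all genes.

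**Figure D1:**
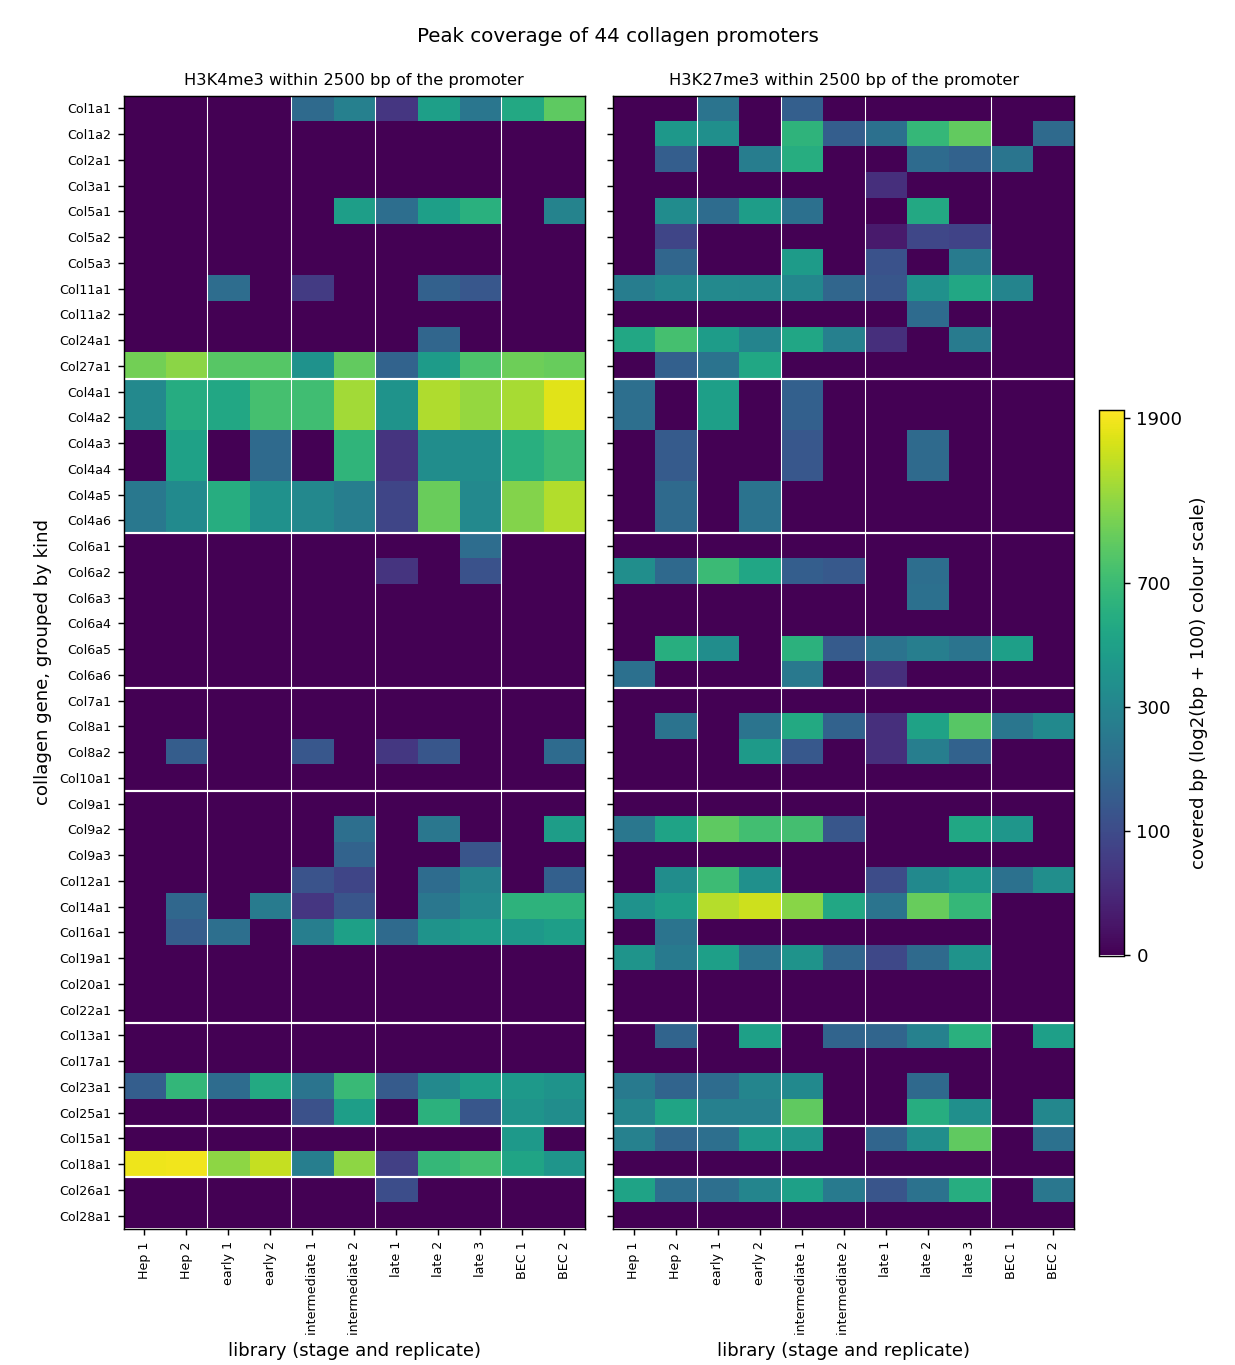
Covered bp at each of the 44 collagen promoters (rows, grouped by the kind of assembly, with white lines between groups) in each of the 11 libraries of H3K4me3 (left) and H3K27me3 (right), on a log2(bp + 100) colour scale in which the darkest colour is 0. The 6 type IV genes, Col18a1, Col27a1 and Col23a1 carry most H3K4me3, and 20 members carry none. With all listed peaks, as drawn, the BEC columns of H3K27me3 hold the fewest marked members, which was not so with equal numbers of peaks per library.

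The family split into 3 sets by H3K4me3 over the 11 libraries. A peak was present in all 11 at Col4a1, Col4a2, Col4a5, Col4a6, Col18a1, Col23a1 and Col27a1, which is 15.9% of the family against 45.2% of all genes. A peak was present in 1 to 10 libraries at 17 members, which is 38.6% against 18.8%. The remaining 20 members (45.5% against 36.1%) had none, and they include the scar collagens Col1a2, Col3a1 and Col5a2. H3K27me3 was found in at least 1 library at 33 members, 75% of the family against 26.3% of all genes, and in 2 or more at 29 members, 65.9% against 17.5%. No peak of any mark was listed near Col22a1, Col6a4 and Col9a1.

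**Figure D2:**
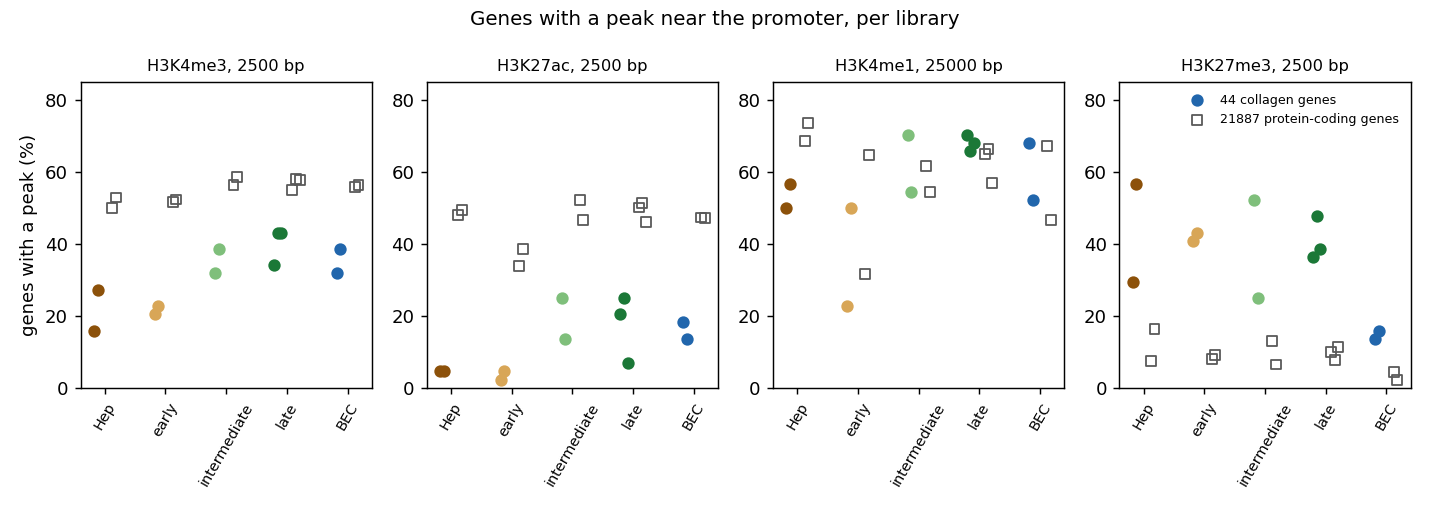
Percent of genes with a peak near the promoter in each library (points), for the 44 collagen genes (filled circles, coloured by stage) and all 21887 protein-coding genes (open squares), by stage and mark. Collagens lie below all genes for H3K4me3 and H3K27ac at every stage and above all genes for H3K27me3.

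Differences between stages were tested with limma on log2(bp + 100) over every promoter that had a peak in at least 2 libraries, with Benjamini-Hochberg adjustment within a contrast, and a promoter was called where the adjusted p was under 0.05. This covered 20 collagens among 13476 promoters for H3K4me3, 9 among 12570 for H3K27ac and 36 among 17633 for H3K4me1. A collagen or partner gene enters these fits through the stages where it has peaks, so the counts are descriptions of single promoters. For H3K4me3, limma called 0 of the 20 collagens in early against Hep (0.66% of all tested promoters were called), 0 in intermediate against early (0.327%), 0 in late against early (2.93%), 0 in late against Hep (6.4%), 0 in BEC against late (0.72%) and 1, Col1a1, in BEC against Hep (12.2%). At an unadjusted p under 0.05 the counts were 0, 3, 4, 5, 4 and 9 of the 20 in the same order, beside 718, 1045, 1705, 3176, 2358 and 2232 of all 13476 tested promoters. Without late 1, whose H3K4me3 peaks were short, the adjusted counts were 8 in BEC against Hep, 4 in late against Hep, 2 in late against early and 1 in intermediate against early cells, while BEC against Hep had 4 without late 2 and late against Hep had 1 without either intermediate library. For these and the later fits without a library, the share of all promoters called was not counted. Their counts therefore cannot be read against the shares of the main fit. For H3K27ac, limma called 2 of 9 in early against Hep (background 25.3%), 1 in intermediate against early (4.53%), 1 in late against early (6.33%), 2 in late against Hep (23.7%), 0 in BEC against late (0.684%, with 1 collagen at an unadjusted p under 0.05) and 2 in BEC against Hep (20.9%). For H3K4me1 it called 1 of 36 in late against Hep (8.24%), and 0 in BEC against Hep (4.59%), early against Hep (0%), intermediate against early (0%), late against early (0%) and BEC against late (0%). At an unadjusted p under 0.05 the H3K4me1 counts were 10, 10, 6, 1, 4 and 2 of the 36 in that order, beside 7619, 5222, 5322, 733, 877 and 534 of all 17633, and the adjusted count was 3 in early against Hep cells without early 2 and 2 in BEC against Hep cells without BEC 1. The median shift of all tested promoters (log2) differed from 0, and the differences below are to be read beside it. For H3K4me3 it was -0.06 in early against Hep, -0.35 in intermediate against early, -0.54 in late against early, -0.66 in late against Hep, 0.80 in BEC against late and 0.12 in BEC against Hep. For H3K4me1 it was -1.52, 0.15, 0.01, -1.64, 0.35 and -1.25 in the same order. For H3K27ac it was 0.10 in BEC against late, -0.92 in early against Hep, 0.46 in intermediate against early, 0.22 in late against early, -0.81 in late against Hep and -0.69 in BEC against Hep.

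The basement membrane genes were the most uniformly marked kind. All 6 type IV genes had H3K4me3 in every late and every BEC library, whereas 4 of 6 had it in every Hep, early and intermediate library. They lie head to head in 3 pairs, so each pair shares most of its window and its values: the starts of Col4a1 and Col4a2 are 21 bp apart on chromosome 8, those of Col4a3 and Col4a4 are 72 bp apart on chromosome 1, and those of Col4a5 and Col4a6 are 1343 bp apart on chromosome X. The promoter between Col4a1 and Col4a2, the chains of the network found in nearly all basement membranes, is shown because it carried the most H3K4me3 of the family in BEC cells. The run is from Col4a2 on the plus strand (chr8:11312555-11312854, GRCm38.p6, RefSeq), from 250 bases before to 50 bases after the start. In this and the later runs, capitals mark matches on either strand to any of 5 short motifs. The GC box was searched as GGGCGG, which the factor Sp1 binds, and the CCAAT box by the letters of its name. The TATA box was searched as TATAAA, which positions the start of transcription in some promoters. The AP-1 motif was searched as TGANTCA, bound by Fos and Jun proteins, and the TEAD motif as GGAATG, bound by the partners of Yap.
Col4a2: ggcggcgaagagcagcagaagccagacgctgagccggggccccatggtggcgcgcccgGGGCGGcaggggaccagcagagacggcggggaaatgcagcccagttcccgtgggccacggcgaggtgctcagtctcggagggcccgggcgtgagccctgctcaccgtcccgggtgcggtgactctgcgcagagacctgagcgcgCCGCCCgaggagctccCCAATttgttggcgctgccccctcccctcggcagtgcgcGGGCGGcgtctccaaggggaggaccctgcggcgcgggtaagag

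At the shared promoter of Col4a1 and Col4a2, H3K4me3 covered 317 and 558 bp in the Hep libraries, 520 and 756 bp in early, 722 and 1281 bp in intermediate, 376, 1360 and 1192 bp in late and 1302 and 1738 bp in BEC libraries. Both BEC values lie above both Hep and both early values, while late 1, a library with very short peaks, lies within the range of the Hep libraries. The means were 1520 ± 308 bp in BEC and 437.5 ± 170.4 bp in Hep cells (SD, n = 2 each), a difference of 1.62 on the log2(bp + 100) scale (SE 0.59, limma adjusted p = 0.102). After quantile normalization between libraries the same pair passed the test in BEC against Hep cells (1.31, adjusted p = 0.00295), late against Hep (1.40, 0.00141), late against early (0.99, 0.0139) and intermediate against early cells (0.95, 0.0469). H3K27ac at this promoter was at 0 in all 4 Hep and early libraries, covered 499 and 197 bp in intermediate, 52, 220 and 0 bp in late, and 205 and 0 bp in BEC libraries. Intermediate cells were thus the only stage with H3K27ac there in every library.

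At the promoter of Col4a5 and Col4a6, whose chains take part in the basement membranes of kidney and some epithelia, H3K4me3 covered 239 and 329 bp in Hep, 563 and 367 bp in early, 316 and 269 bp in intermediate, 90, 951 and 319 bp in late and 1090 and 1379 bp in BEC libraries. Both BEC values lie above all 9 others, and BEC minus Hep was 1.80 (SE 0.64, limma adjusted p = 0.0922). H3K27ac appeared in 1 intermediate library (318 bp), 2 late libraries (60 and 194 bp) and 1 BEC library (471 bp), and in no Hep or early library. At Col4a3 and Col4a4, H3K4me3 covered 0 and 472 bp in Hep, 0 and 186 bp in early, 0 and 637 bp in intermediate, 58, 346 and 345 bp in late and 580 and 692 bp in BEC libraries. Replicate 1 of the first 3 stages had no peak there, so the spread within those stages is as large as the level itself, and BEC minus Hep was 1.62 (SE 0.91, limma adjusted p = 0.505).

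Col18a1 was the single collagen with H3K27ac in all 11 libraries, and its 2 annotated starts were marked differently along the stages. RefSeq gives an upstream start at position 77166530 and a downstream start at position 77113705 on the minus strand of chromosome 10, 52825 bp apart. The promoter analysis used the downstream start, which had more H3K4me3 summed over all libraries, and the upstream start was examined after its values had been seen. Both promoters are shown because the result turns on them, first the upstream one (chr10:77166481-77166780, minus strand) and then the downstream one (chr10:77113656-77113955, minus strand), both from RefSeq on GRCm38.p6.
Col18a1 upstream: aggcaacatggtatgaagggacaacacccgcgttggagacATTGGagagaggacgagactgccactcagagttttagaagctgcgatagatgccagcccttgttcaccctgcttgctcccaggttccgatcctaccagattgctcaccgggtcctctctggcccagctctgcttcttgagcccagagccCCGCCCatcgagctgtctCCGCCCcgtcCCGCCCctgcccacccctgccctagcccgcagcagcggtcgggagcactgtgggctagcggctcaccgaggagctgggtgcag
Col18a1 downstream: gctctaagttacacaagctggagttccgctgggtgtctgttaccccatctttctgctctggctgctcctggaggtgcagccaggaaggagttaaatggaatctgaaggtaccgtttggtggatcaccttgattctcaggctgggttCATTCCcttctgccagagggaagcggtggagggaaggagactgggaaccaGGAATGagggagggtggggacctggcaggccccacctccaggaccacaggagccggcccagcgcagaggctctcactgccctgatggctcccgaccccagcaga

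The upstream promoter holds 3 GC boxes, 1 CCAAT box and 16 CpG dinucleotides, and the downstream promoter holds 2 TEAD motifs, no GC box and 6 CpG dinucleotides. Downstream coverage was highest in Hep libraries, and upstream peaks were listed from the intermediate stage on. Downstream, H3K4me3 covered 1842 and 1864 bp in Hep, 1147 and 1516 bp in early, 269 and 1155 bp in intermediate, 77, 663 and 736 bp in late and 489 and 392 bp in BEC libraries. Upstream, it was at 0 in all 4 Hep and early libraries and covered 327 and 606 bp in intermediate, 324, 941 and 925 bp in late and 995 and 1173 bp in BEC libraries. The upstream value exceeded the downstream value in all 3 late and both BEC libraries and in 1 of 2 intermediate libraries.

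For H3K27ac the same 2 promoters gave a like picture at lower values. Downstream, it covered 589 and 1002 bp in Hep, 221 and 173 bp in early, 133 and 293 bp in intermediate, 115, 154 and 134 bp in late and 248 and 215 bp in BEC libraries. Upstream, it was at 0 in the 4 Hep and early libraries and covered 353 and 151 bp in intermediate, 159, 175 and 198 bp in late and 407 and 436 bp in BEC libraries. The Hep values lie above all others downstream, and all 7 libraries of the last 3 stages lie above 0 upstream.

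**Figure D3:**
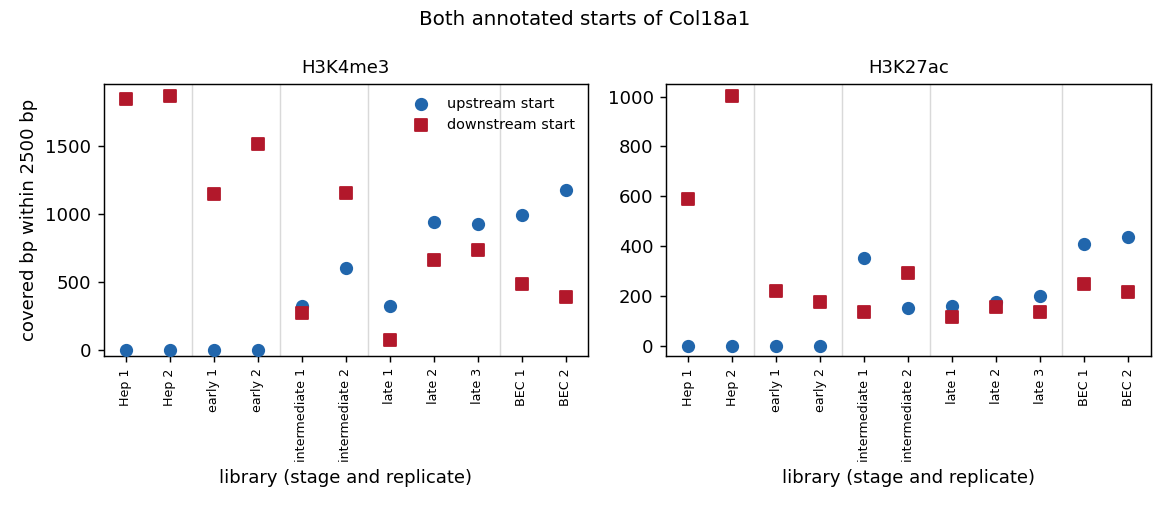
Covered bp within 2500 bp of the upstream start (blue circles) and the downstream start (red squares) of Col18a1 in each library, for H3K4me3 (left) and H3K27ac (right). The upstream start is at 0 in all Hep and early libraries, and it lies above the downstream start in all late and BEC libraries.

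Downstream H3K27ac fell by 1.56 on the log2 scale in early against Hep cells (SE 0.37, limma adjusted p = 0.0191), by 1.90 in late against Hep (SE 0.34, adjusted p = 0.00752) and by 1.40 in BEC against Hep (SE 0.37, adjusted p = 0.0274), beside the median shifts of all promoters given above. None of the 3 passed after quantile normalization (adjusted p = 0.65, 0.139 and 0.459), and none passed without Hep 2 (adjusted p = 0.117, 0.0678 and 0.148). Leaving out early 2 ended the first call (0.0568), and leaving out BEC 1 (0.0763) or BEC 2 (0.0959) ended the last. Downstream H3K4me3 differed by -2.01 in late against Hep cells (SE 0.65, adjusted p = 0.0813). With the upstream start used instead, the H3K27ac difference was positive, 1.47 in late against Hep cells (adjusted p = 0.0129) and 2.38 in BEC against Hep cells (adjusted p = 0.00256).

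With every annotated start tested as a feature of its own, limma called upstream H3K4me3 higher in late than in early cells (2.94, SE 0.49, adjusted p = 0.00656, background 2.84% of 15704 starts), in late than in Hep cells (2.94, adjusted p = 0.00246, background 6.39%) and in BEC than in Hep cells (3.56, SE 0.53, adjusted p = 0.000611, background 12.5%). In intermediate against early cells it was 2.46 (adjusted p = 0.0690, background 0.293%). Upstream H3K27ac was called higher in intermediate than in early cells (1.75, adjusted p = 0.0240, background 4.81% of 14748 starts), in late than in early cells (1.47, adjusted p = 0.0246, background 6.43%), in late than in Hep cells (1.47, adjusted p = 0.0139, background 23.4%) and in BEC than in Hep cells (2.38, adjusted p = 0.00270, background 21.1%). These differences are set against libraries at 0 and depend on the 100 bp added, so they give no fold. Leaving out 1 early library ended the late against early call for H3K4me3 (adjusted p = 0.0849 and 0.171) and H3K27ac (0.0921 and 0.056), as leaving out late 2 (0.0578) or late 3 (0.0704) did for H3K27ac. Leaving out 1 Hep library ended the late against Hep call for H3K4me3 (0.0936 and 0.0958) and H3K27ac (0.081 and 0.0824). Both BEC against Hep calls held in all 19 alternatives.

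The balance of the 2 starts, log2 of upstream over downstream coverage with 100 bp added to each, averaged -4.29 ± 0.01 in Hep, -3.83 ± 0.26 in early, -0.31 ± 0.74 in intermediate, 0.67 ± 0.52 in late and 1.13 ± 0.34 in BEC cells for H3K4me3 (SD, n = 2, 2, 2, 3 and 2). For H3K27ac it averaged -3.12 ± 0.48, -1.57 ± 0.17, 0.16 ± 1.14, 0.24 ± 0.12 and 0.65 ± 0.16 in the same order. Both marks thus gave the same order of the stage means. For H3K4me3 the late and BEC means differed by less than the SD of the late libraries. For H3K27ac the intermediate libraries, at 0.96 and -0.65, lay on both sides of all late libraries, so the order of these stages was not resolved. Upstream coverage was 0 in every Hep and early library, so the step between these stages reflects downstream coverage alone. That step is to be read beside the median shift of all promoters given above. Over the 9 libraries of the Hep, early, intermediate and late stages, the H3K4me3 balance increased by 1.82 per stage (exact two-sided permutation test, p = 0.000132, adjusted over the 4 trends computed 0.000529, the smallest p that 7560 arrangements allow). Over the 7 EGFP+ sorted libraries alone, which share diet and isolation, it increased by 2.17 per stage (exact permutation p = 0.00476, adjusted 0.00635). The H3K27ac balance increased by 1.13 per stage over the 9 libraries (exact permutation p = 0.000926, adjusted 0.00185) and by 0.857 over the 7 (p = 0.0381, adjusted 0.0381). The trend was chosen for testing after the values had been seen. No H3K27me3 peak was listed at the downstream promoter. At the upstream promoter H3K27me3 was listed in Hep 2 (250 bp) and early 1 (634 bp) and in no other library.

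Col15a1, the other multiplexin, which lies in basement membrane zones, had H3K4me3 in 1 library, BEC 1 (413 bp). H3K27me3 was listed at its promoter in 9 libraries and was missing in intermediate 2 and BEC 1.

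Among the fibrillar genes, Col1a1, the main chain of type I collagen, had H3K4me3 peaks from the intermediate stage on, whereas Col1a2, its partner chain, and Col3a1, the chain of type III collagen, had none in any library. H3K4me3 at Col1a1 was at 0 in the 4 Hep and early libraries and covered 188 and 278 bp in intermediate, 62, 457 and 231 bp in late and 528 and 886 bp in BEC libraries. All 7 libraries of the last 3 stages lie above the first 4, and both BEC values lie above all others. The means were 707 ± 253 bp in BEC and 0 bp in Hep cells (SD, n = 2 each), a fitted log2 difference of 2.98 (SE 0.57, limma adjusted p = 0.00196), which gives no fold because the Hep libraries are at 0. Without Hep 1 the adjusted p was 0.0523 and without BEC 2 it was 0.0728, and no collagen was called in either case.

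The 10 H3K4me3 peaks of Col1a1 lie 902 to 1902 bp inside the gene from its start coordinate on chromosome 11 (gene at 94936224 to 94953042). Within 1000 bp of that coordinate H3K4me3 was at 0 in both BEC and both Hep libraries, and single peaks of intermediate 1, late 1 and late 3 reach in. The start was placed there because this end of the gene had more H3K4me3. The start of the lncRNA gene Gm46293 lies 1608 bp from the coordinate on the other side, away from the peaks. H3K27ac was listed in that window in 1 library, BEC 2 (143 bp). H3K27me3 was listed in early 1 (224 bp) and intermediate 1 (152 bp). Within 25000 bp, H3K4me1 covered 0 and 476 bp in Hep, 0 and 966 bp in early, 1143 and 1549 bp in intermediate, 1039, 1263 and 570 bp in late and 2490 and 506 bp in BEC libraries.

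The promoters of Col1a2 (chr6:4505368-4505667, plus strand) and Col3a1 (chr1:45311288-45311587, plus strand), from RefSeq on GRCm38.p6, are shown because these partners of Col1a1 had no H3K4me3 peak.
Col1a2: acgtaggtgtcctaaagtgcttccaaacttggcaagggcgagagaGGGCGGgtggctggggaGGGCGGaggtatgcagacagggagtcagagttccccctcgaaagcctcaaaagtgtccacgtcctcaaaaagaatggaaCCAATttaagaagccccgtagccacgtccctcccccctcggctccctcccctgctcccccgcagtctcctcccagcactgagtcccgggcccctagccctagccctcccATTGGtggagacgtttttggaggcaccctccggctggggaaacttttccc
Col3a1: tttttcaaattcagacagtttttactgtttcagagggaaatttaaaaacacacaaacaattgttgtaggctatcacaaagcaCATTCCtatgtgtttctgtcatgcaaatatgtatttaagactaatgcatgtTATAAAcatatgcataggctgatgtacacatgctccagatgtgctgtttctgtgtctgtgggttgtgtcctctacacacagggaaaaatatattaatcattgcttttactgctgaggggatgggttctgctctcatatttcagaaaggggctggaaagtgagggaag

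They differ in CpG content, with 13 CpG dinucleotides at Col1a2 and 0 at Col3a1, and in H3K27me3. H3K27me3 at Col1a2 covered 0 and 409 bp in Hep, 356 and 0 bp in early, 622 and 148 bp in intermediate, 207, 656 and 915 bp in late and 0 and 186 bp in BEC libraries. All 3 late and both intermediate libraries thus had a peak at Col1a2, against 1 of 2 in each other stage. At Col3a1 a single H3K27me3 peak was listed, in late 1 (50 bp), and within 25000 bp a single H3K4me1 peak, in late 3 (63 bp).

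Col27a1, a fibrillar collagen best known from cartilage, had H3K4me3 in every library. Its promoter (chr4:63215162-63215461, plus strand, RefSeq, GRCm38.p6), with 18 CpG dinucleotides, is shown because its H3K27ac was called in 3 contrasts.
Col27a1: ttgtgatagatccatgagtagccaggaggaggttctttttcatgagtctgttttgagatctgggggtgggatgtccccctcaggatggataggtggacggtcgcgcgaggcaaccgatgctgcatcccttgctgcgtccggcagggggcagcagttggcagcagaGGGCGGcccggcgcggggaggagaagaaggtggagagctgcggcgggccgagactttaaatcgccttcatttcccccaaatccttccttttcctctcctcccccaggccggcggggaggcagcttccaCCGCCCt

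H3K4me3 covered 996 and 1133 bp in Hep, 847 and 844 bp in early, 374 and 915 bp in intermediate, 165, 434 and 800 bp in late and 977 and 933 bp in BEC libraries. H3K27ac covered 523 and 372 bp in Hep, 0 and 0 bp in early, 531 and 297 bp in intermediate, 183, 363 and 140 bp in late and 146 and 311 bp in BEC libraries. Early cells were the one stage without an H3K27ac peak. The H3K27ac value fell by 2.44 in early against Hep cells (SE 0.44, limma adjusted p = 0.00672), and it was 2.32 higher in intermediate than in early cells (SE 0.44, adjusted p = 0.0220) and 1.66 higher in late than in early cells (SE 0.40, adjusted p = 0.0382), all fitted against early libraries at 0. After quantile normalization none of the 3 passed (adjusted p = 0.339, 0.13 and 0.164). Leaving out Hep 1 ended the first call (0.0611), leaving out early 1 (0.0733) or intermediate 1 (0.168) ended the second, and the last was lost without either Hep, either early or any late library (adjusted p = 0.0561 to 0.134).

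Col5a1, which nucleates type I fibrils, had no H3K4me3 in Hep and early libraries and covered 0 and 450 bp in intermediate, 200, 460 and 592 bp in late and 0 and 292 bp in BEC libraries. Late was the one stage with a peak in every library, and late minus early was 2.29 (SE 0.69, limma adjusted p = 0.0952) and late minus Hep 2.29 (adjusted p = 0.0594). Col11a1 had H3K4me3 of 70 to 197 bp in 4 libraries and H3K27me3 in 10 of 11 libraries, of 125 to 518 bp. Col24a1 had H3K4me3 in late 2 alone (174 bp). Col5a3, Col11a2, Col2a1 and Col5a2 had no H3K4me3 at the promoter, and Col5a3 had H3K27ac in intermediate 1 alone (155 bp).

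**Figure D4:**
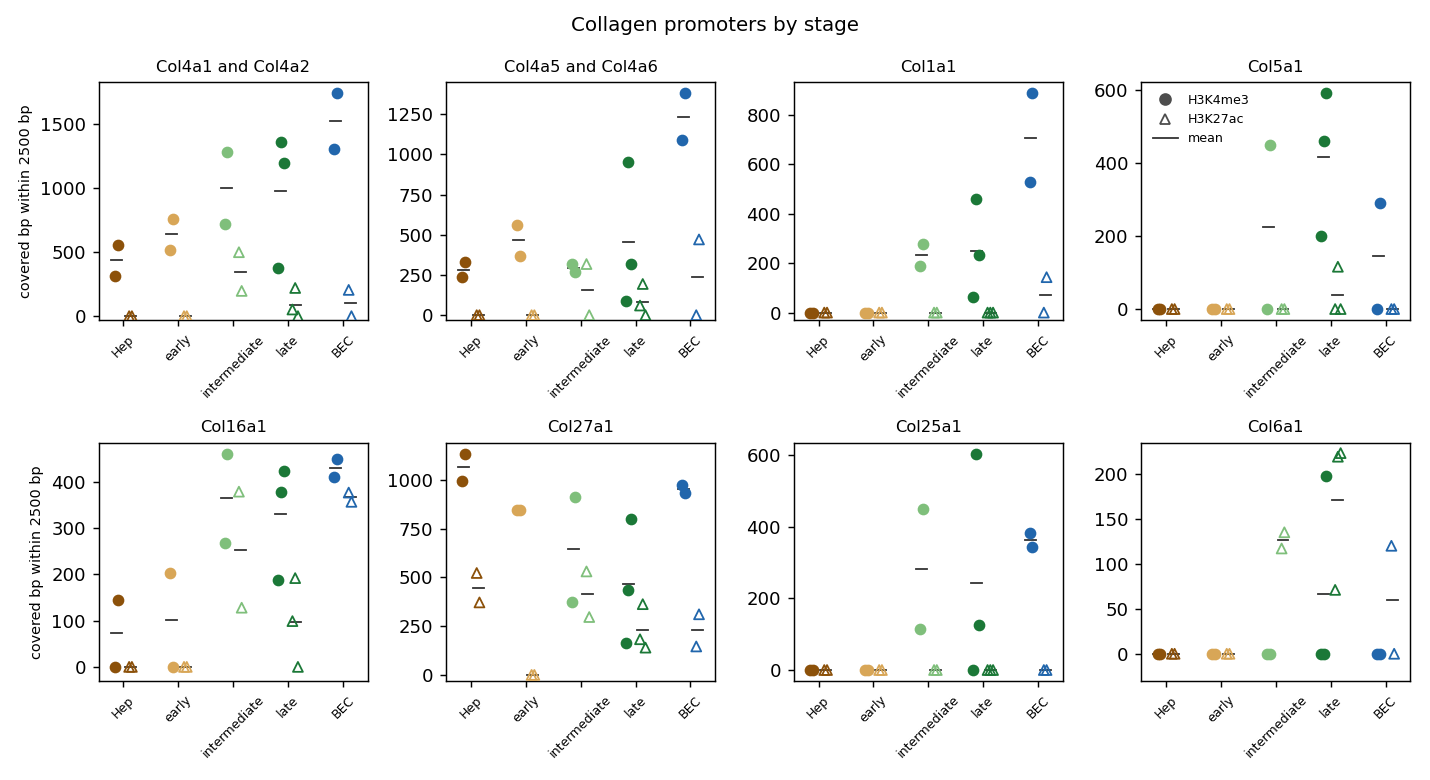
Covered bp within 2500 bp of 8 collagen promoters by stage, for H3K4me3 (filled circles) and H3K27ac (open triangles), with 1 point per library and a bar at the mean. Col1a1 and Col5a1 are at 0 for H3K4me3 in Hep and early libraries, and H3K27ac at Col16a1 and Col6a1 is seen in intermediate, late and BEC libraries only.

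Counting promoters with a peak in every library of 1 stage and in none of another, H3K4me3 was gained at Col1a1, Col12a1 and Col25a1 in intermediate against early cells (3 of 44 members, 6.82%, beside 3.55% of all genes). It was gained at Col1a1 and Col5a1 in late against early (4.55% beside 2.78%) and in late against Hep cells (4.55% beside 3.68%), and at Col1a1 and Col25a1 in BEC against Hep cells (4.55% beside 5.05%). The last 2 shares lie near those of all genes. H3K27ac was gained at Col4a1, Col4a2, Col6a1, Col16a1 and Col27a1 in intermediate against early cells (11.4% beside 6.27%). Its share was 4.55% beside 5.88% in late against early cells and 2.27% beside 3.18% in late against Hep cells. In BEC against Hep cells it was 2.27% beside 4.2%, so these later shares lie below those of all genes. Only a promoter without a peak in the stage compared against could be gained, and fewer collagens than all genes had a peak there. Col4a1 and Col4a2 share 1 promoter in these counts.

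FACITs sit on the surface of fibrils and link them to other matrix proteins, and 3 of the 9 were marked repeatedly. Col16a1, found with type I fibrils and near basement membranes, is shown (chr4:130047590-130047889, plus strand, RefSeq, GRCm38.p6) because it carried both active marks in BEC cells, and its promoter holds 24 CpG dinucleotides.
Col16a1: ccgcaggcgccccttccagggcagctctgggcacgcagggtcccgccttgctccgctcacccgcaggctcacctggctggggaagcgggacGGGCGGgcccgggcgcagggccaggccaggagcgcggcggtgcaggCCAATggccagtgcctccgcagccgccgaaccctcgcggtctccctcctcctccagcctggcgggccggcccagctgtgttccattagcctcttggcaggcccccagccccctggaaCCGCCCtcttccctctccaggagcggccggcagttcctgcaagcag

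H3K4me3 at Col16a1 covered 0 and 145 bp in Hep, 203 and 0 bp in early, 268 and 461 bp in intermediate, 188, 379 and 424 bp in late and 410 and 449 bp in BEC libraries. H3K27ac was at 0 in the 4 Hep and early libraries and covered 379 and 128 bp in intermediate, 99, 192 and 0 bp in late and 377 and 357 bp in BEC libraries. Each mark thus had a peak in both libraries of the intermediate and BEC stages. The H3K27ac difference between BEC and Hep cells was 2.22 (SE 0.51, limma adjusted p = 0.0158), fitted against Hep libraries at 0. It did not pass without either Hep library (adjusted p = 0.102 and 0.106) or either BEC library (0.0835 and 0.0774), and it was 0.00655 after quantile normalization. For H3K4me3 the BEC against Hep difference was 1.76 (SE 0.61, adjusted p = 0.0827).

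Col14a1, a fibril-surface collagen of dense connective tissue, stood apart in BEC cells for both H3K27me3 and H3K4me3. H3K27me3 covered 371 and 450 bp in Hep, 1399 and 1564 bp in early, 1122 and 523 bp in intermediate, 222, 935 and 658 bp in late and 0 and 0 bp in BEC libraries. H3K4me3 covered 0 and 178 bp in Hep, 0 and 254 bp in early, 61 and 122 bp in intermediate, 0, 235 and 317 bp in late and 613 and 614 bp in BEC libraries. The BEC libraries stand highest for H3K4me3 and lowest for H3K27me3 among the 11 of each mark, and for H3K4me3 BEC minus Hep was 2.10 (SE 0.73, limma adjusted p = 0.0840). Col12a1 had H3K4me3 in both intermediate libraries (118 and 90 bp), 2 of 3 late libraries (192 and 291 bp) and 1 BEC library (155 bp), and H3K27ac in intermediate 1 (203 bp), late 1 (87 bp) and late 2 (182 bp). Of the other FACITs, Col9a2 had H3K4me3 in 3 libraries (204, 234 and 442 bp) and Col9a3 in 2 (165 and 123 bp), while Col9a1, Col19a1, Col20a1 and Col22a1 had none.

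Of the 4 transmembrane collagens, Col23a1 had H3K4me3 in every library, of 148 and 652 bp in Hep, 193 and 536 bp in early, 222 and 683 bp in intermediate, 139, 318 and 444 bp in late and 418 and 380 bp in BEC libraries. Its stages overlap throughout. Col25a1, known for its binding to amyloid in brain, had no H3K4me3 in Hep and early libraries and covered 114 and 451 bp in intermediate, 0, 604 and 125 bp in late and 382 and 344 bp in BEC libraries. BEC minus Hep was 2.21 for Col25a1 (SE 0.72, limma adjusted p = 0.0570), so the difference did not pass. Col13a1 and Col17a1, the hemidesmosome collagen, had no H3K4me3.

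The beaded filament genes encode type VI collagen, whose main chains are Col6a1, Col6a2 and Col6a3. H3K27ac at Col6a1 was at 0 in the 4 Hep and early libraries and covered 117 and 135 bp in intermediate, 71, 219 and 223 bp in late and 120 and 0 bp in BEC libraries. All intermediate and late libraries lie above all Hep and early libraries, and late minus Hep was 1.38 (SE 0.41, limma adjusted p = 0.0402), fitted against 0. That call was lost without Hep 1 (0.166), Hep 2 (0.178), late 2 (0.0708) or late 3 (0.0945). H3K4me3 was listed at Col6a1 in late 3 alone (198 bp) and at Col6a2 in late 1 and late 3 (59 and 115 bp). Col6a3, Col6a4, Col6a5 and Col6a6 had none. Of the genes of anchoring fibrils and hexagonal networks, Col8a2 had H3K4me3 in 5 libraries, of 63 to 190 bp, and Col7a1, Col8a1 and Col10a1 had none. H3K27ac was listed at Col10a1, the hypertrophic cartilage collagen, in early 2 alone (123 bp). Of the 2 other genes, Col26a1 had H3K4me3 in late 1 alone (106 bp) and Col28a1 had none.

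H3K4me1 within 25000 bp was listed near 39 of 44 collagens in at least 1 library (88.6% against 83.4% of all genes) and in all 11 libraries near Col4a1, Col4a2, Col9a2, Col11a2, Col14a1, Col18a1 and Col20a1 (15.9% against 15.6%). The family share averaged 53.4% ± 4.82 in Hep, 36.4% ± 19.3 in early, 62.5% ± 11.2 in intermediate, 68.2% ± 2.27 in late and 60.2% ± 11.2 in BEC cells, against 71.1% ± 3.50, 48.2% ± 23.5, 58.1% ± 5.09, 62.9% ± 5.10 and 57.0% ± 14.6 of all genes (SD, n = 2, 2, 2, 3 and 2). In early, intermediate and BEC cells the family and all genes differed by less than the SD between libraries. Near Col15a1, Col24a1, Col2a1, Col6a1 and Col6a2 a peak was present in every late and every BEC library and in no Hep library (5 of 44 members, 11.4%, beside 2.29% of all genes in late against Hep and 2.84% in BEC against Hep cells). Only a gene without a Hep peak could be gained, and a smaller share of collagens than of all genes had a Hep peak. These shares therefore do not show that unmarked collagens gained H3K4me1 more often.

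At Col15a1, H3K4me1 covered 0 and 0 bp in Hep, 0 and 168 bp in early, 293 and 258 bp in intermediate, 473, 821 and 357 bp in late and 2012 and 235 bp in BEC libraries. Late minus Hep was 2.64 (SE 0.82, limma adjusted p = 0.0581), and after quantile normalization it passed (3.18, adjusted p = 0.00508). The median shift of all promoters in this contrast was -1.64 before that normalization. BEC 1 exceeded BEC 2 near each of these 5 genes. The single call for H3K4me1 was Col8a2, whose chain forms the hexagonal network of Descemet's membrane in the cornea. It covered 734 and 929 bp in Hep, 202 and 0 bp in early, 199 and 193 bp in intermediate, 60, 0 and 130 bp in late and 347 and 138 bp in BEC libraries. Both Hep values lie above all others, and H3K4me1 near Col8a2 fell by 2.59 in late against Hep cells (SE 0.71, limma adjusted p = 0.0473). After quantile normalization the difference was -0.87 (adjusted p = 0.528). The call was lost without either Hep, either intermediate or any late library (adjusted p = 0.0575 to 0.318). Collagens called in late against Hep cells numbered 5 without BEC 1 or BEC 2 and 2 without either early library.

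H3K27me3, for which no test was run, was listed at 6 to 25 collagen promoters per library, with a median of 17. By stage it was at 13 to 25 members in Hep, 18 to 19 in early, 11 to 23 in intermediate, 16 to 21 in late and 6 to 7 in BEC libraries. With equal numbers of peaks per library, it was at 6 members in both Hep libraries, 7 to 12 in early, 3 to 7 in intermediate, 7 to 10 in late and 3 to 7 in BEC libraries, so BEC overlapped the intermediate, late and early ranges and held the Hep value within its own. The share of all genes was not counted under that setting. With all peaks, the mean shares were 43.2% ± 19.3 in Hep, 42.0% ± 1.61 in early, 38.6% ± 19.3 in intermediate, 40.9% ± 6.01 in late and 14.8% ± 1.61 in BEC cells (SD, n = 2, 2, 2, 3 and 2), against 11.8%, 8.55%, 9.75%, 9.61% and 3.31% of all genes. The share of all genes was thus also lowest in BEC cells, whose lists held 5737 and 2343 peaks. A peak was lost in every BEC library, against a peak in every library of the other stage, at Col14a1, Col19a1, Col23a1, Col24a1 and Col6a2 in BEC against Hep cells (5 of 44, 11.4%, beside 4.09% of all genes). In BEC against late cells this held for Col14a1, Col19a1, Col5a2 and Col8a2 (4 of 44, 9.09%, beside 1.86%). Only a promoter marked in every library of the other stage could be lost. Collagens carried H3K27me3 more often than all genes, so these shares do not show that marked collagens lost it more often.

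H3K27me3 at Col24a1, a minor fibrillar collagen, covered 518 and 753 bp in Hep, 439 and 297 bp in early, 507 and 275 bp in intermediate, 50, 0 and 253 bp in late and 0 and 0 bp in BEC libraries. At Col19a1, a minor FACIT, it covered 384 and 250 bp in Hep, 460 and 214 bp in early, 379 and 171 bp in intermediate, 94, 187 and 379 bp in late and 0 and 0 bp in BEC libraries. At Col6a2 it covered 352 and 184 bp in Hep, 693 and 505 bp in early, 147 and 135 bp in intermediate, 0, 199 and 0 bp in late and 0 and 0 bp in BEC libraries. All 3 genes had the mark in every Hep, early and intermediate library and in neither BEC library.

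At 9 members (20.5% against 5.05% of all genes), H3K27me3 was found in 2 or more libraries and H3K4me3 in none. They were Col1a2, Col2a1, Col5a2, Col5a3, Col6a5, Col6a6, Col8a1, Col13a1 and Col19a1. H3K27me3 in 1 library alone, with H3K4me3 in none, was found at Col3a1, Col6a3 and Col11a2. Neither mark was listed at 8 members (18.2% against 28.5%): Col6a4, Col7a1, Col9a1, Col10a1, Col17a1, Col20a1, Col22a1 and Col28a1. H3K4me3 and H3K27me3 were each listed in 2 or more libraries at 17 members (38.6% against 11.4%), among them the 6 type IV genes, Col1a1, Col27a1 and Col14a1. This count pools stages, so the marks need not occur at the same stage. In libraries of the same stage and number, both were listed at 0 members in BEC 1 (1.25% of all genes). The most were 9 in late 2 (20.5% against 3.14%), while late 1 had 2 (4.55% against 4.72%). Where both were listed at the same stage, a mixture of cells or alleles and both marks on the same chromatin cannot be told apart in such data. At the type IV genes and Col27a1, H3K27me3 was listed in 2 or 3 libraries only, of 128 to 514 bp.

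The promoter sequences of 35 members were in the RefSeq table, and 15 of them had H3K4me3 in 2 or more libraries. Another 9 had H3K27me3 in 2 or more and H3K4me3 in fewer than 2, and 11 had neither in 2 or more. These 9 differ from those above. They include Col15a1 and Col24a1, with H3K4me3 in 1 library each, and lack Col2a1 and Col5a2, which had no sequence. The CpG ratio (observed over expected from base composition) had medians of 0.587, 0.470 and 0.139 in the same order, so collagen promoters with H3K4me3 had the most CpG. All promoters with a sequence gave 0.764 (n = 10766), 0.417 (n = 1030) and 0.173 (n = 5696). GC boxes were found in 21 of the 35 promoters (60%, against 46.9% of 17492 promoters), CCAAT boxes in 11 (31.4% against 39.0%), TATA boxes in 5 (14.3% against 13.2%), AP-1 motifs in 1, Col6a1 (2.86% against 7.02%), and TEAD motifs in 4 (11.4% against 13.4%). These shares are matches of letters in 300 bases on either strand, and the one at the downstream Col18a1 start is among those with TEAD motifs.

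Of 31 genes that process collagen chains, 29 entered the H3K4me3 fit, and a peak was present at 16 to 18 in Hep, 16 to 18 in early, 23 to 28 in intermediate, 21 to 28 in late and 23 to 26 in BEC libraries. Limma called 2 of 29 higher and 0 lower in BEC against Hep cells (9.1% of all tested promoters were higher), with a list median of 0.77 beside 0.12 over all promoters. Serpinh1, the chaperone that collagen chains need for folding, had no H3K4me3 in Hep and early libraries and covered 61 and 408 bp in intermediate, 146, 722 and 565 bp in late and 1528 and 1590 bp in BEC libraries. All intermediate, late and BEC libraries lie above Hep and early. The fitted difference was 4.05 in BEC against Hep cells (SE 0.63, limma adjusted p = 0.000565), 2.36 in late against Hep cells (SE 0.58, adjusted p = 0.0216) and 2.36 in late against early cells (adjusted p = 0.0342). Adamts2, which trims the ends of type I and III procollagen, was called in BEC against Hep cells (2.82, SE 0.61, adjusted p = 0.00462).

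For H3K27ac, limma called 7 of 23 processing genes higher and 4 lower in BEC against Hep cells (6.23% of all tested promoters were higher and 14.6% lower), and 5 higher and 4 lower in late against Hep cells (4.47% and 19.2%). After quantile normalization, 6 of the 7 and 1 of the 4 were also called in BEC against Hep cells, and 5 of the 5 and 0 of the 4 in late against Hep cells. Loxl2, which cross-links collagen, was at 0 in Hep and early libraries and covered 246 and 197 bp in intermediate, 236, 285 and 237 bp in late and 256 and 278 bp in BEC libraries. It was called in intermediate against early (1.68, SE 0.29, adjusted p = 0.0191, but 0.377 after quantile normalization) and late against early cells (1.82, SE 0.27, adjusted p = 0.00891). The related Loxl4 was higher in BEC than in Hep cells (3.38, SE 0.70, adjusted p = 0.00999). P4ha2, a prolyl hydroxylase subunit, fell by 2.43 in BEC against Hep cells (SE 0.35, adjusted p = 0.00261), and so did Bmp1, which removes the procollagen tail (-1.79, SE 0.43, adjusted p = 0.0187), and Plod1, a lysyl hydroxylase (-1.97, SE 0.49, adjusted p = 0.0199), although the last 2 did not pass after quantile normalization. P3h4 and Fkbp10, which share 1 window, were higher in late than in early cells (2.15, SE 0.37, adjusted p = 0.0122), and Serpinh1 was higher in BEC than in Hep cells (2.43, SE 0.68, adjusted p = 0.0327).

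Most of the tested partners of type IV collagen in the basement membrane had more H3K4me3 in BEC than in Hep cells. Of 17 listed, 16 were tested for H3K4me3, and limma called 12 higher in BEC against Hep cells, 5 in late against Hep, 4 in late against early, 2 in BEC against late, 1 in intermediate against early and 0 in early against Hep cells, with 0 lower in any. Of all tested promoters, 9.1%, 3.32%, 1.45%, 0.653%, 0.134% and 0.349% were higher in these comparisons, in the same order. The 2 in BEC against late cells were Lamb1 and Lamb3, which passed the filter only through BEC, so that count gives no support. The list was chosen with earlier results of these data known, so the counts describe its promoters and test nothing about the list. After quantile normalization 10 of the 12 in BEC against Hep cells were also called, without Lama3 (adjusted p = 0.545) and Lamb2 (0.0548). Their median in BEC against Hep cells was 2.52. At an unadjusted p under 0.05 there were 2 in early against Hep cells. H3K4me3 was listed at 4 to 8 of the 17 promoters in Hep, 6 to 7 in early, 13 to 14 in intermediate, 14 to 15 in late and all 16 tested in BEC libraries. Sparc, which binds type IV collagen, was at 0 in Hep and early libraries and covered 614 and 1221 bp in intermediate, 199, 1431 and 876 bp in late and 1799 and 2246 bp in BEC libraries. It was called in intermediate against early (3.28, SE 0.65, adjusted p = 0.0406), late against early (2.93, SE 0.59, adjusted p = 0.0125) and BEC against Hep cells (4.40, SE 0.65, adjusted p = 0.000435).

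Pxdn, the peroxidase that cross-links type IV collagen, was at 0 in Hep and early libraries and covered 294 and 612 bp in intermediate, 195, 391 and 853 bp in late and 1019 and 891 bp in BEC libraries (late minus early 2.37, SE 0.51, limma adjusted p = 0.0179). The laminin chain Lama4 was at 0 in the same 4 libraries and covered 328 and 394 bp in intermediate, 221, 799 and 661 bp in late and 1429 and 2099 bp in BEC libraries (late minus early 2.59, SE 0.49, adjusted p = 0.00974). Both were present in every library of the last 3 stages.

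Lamb1 and Lamb3 were listed mainly in BEC libraries. Both passed the filter of 2 libraries only through BEC, so the fitted differences describe these promoters and give no independent support. Lamb1 covered 915 and 1054 bp in BEC libraries, against 0, 0 and 134 bp in late libraries (BEC minus late 3.03, SE 0.47, limma adjusted p = 0.00554). Lamb3, another laminin chain, covered 1062 and 833 bp in BEC libraries, against 53, 0 and 0 bp in late libraries (3.18, SE 0.43, adjusted p = 0.00175). Both were at 0 in Hep, early and intermediate libraries. Lamc3 (2.82, SE 0.56, adjusted p = 0.00263) and Hspg2, which encodes perlecan (2.56, SE 0.79, adjusted p = 0.0423), were called in BEC against Hep cells. For H3K27ac, limma called 7 of 13 tested partners higher and 1 lower in BEC against Hep cells (6.23% and 14.6% of all tested promoters), and 5 higher and 0 lower in late against early cells (5.21% and 1.12%). After quantile normalization these counts included 7 of the 7 and 0 of the 1 in BEC against Hep cells, and 3 of the 5 in late against early cells.

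**Figure D5:**
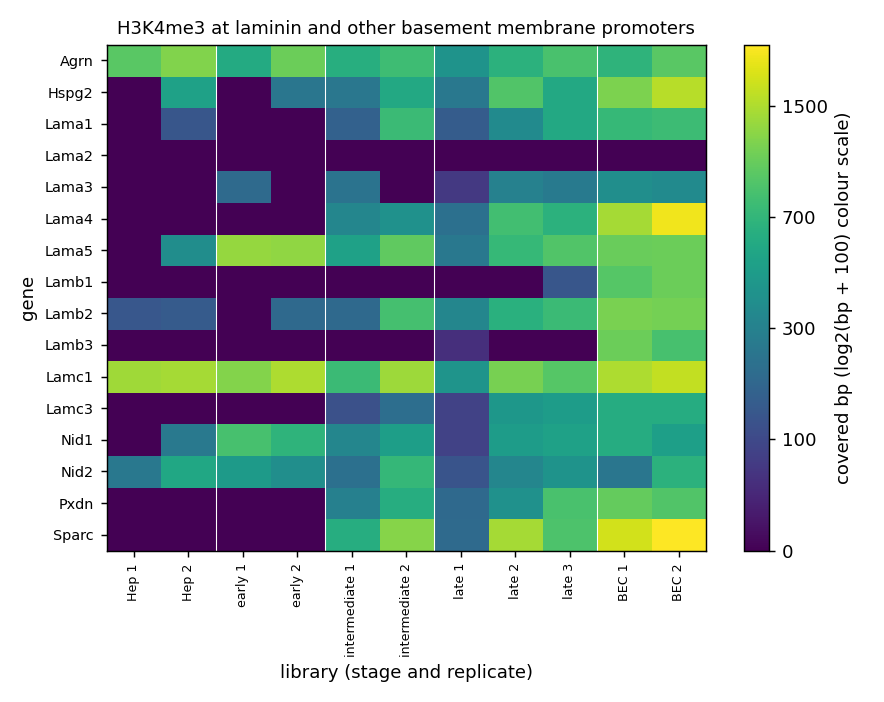
H3K4me3 in covered bp (log2(bp + 100) colour scale, darkest at 0) at laminin, nidogen and other basement membrane promoters (rows) in each of the 11 libraries (columns). Sparc, Lama4 and Pxdn are at 0 in Hep and early libraries and are marked from the intermediate stage on, whereas Lamb1 and Lamb3 are marked mainly in BEC libraries.

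Of 10 collagen receptors, 4 were tested for H3K4me3, and 2 were called higher in early, late and BEC cells, each against Hep cells, with 0 lower (0.349%, 3.32% and 9.1% of all tested promoters were higher). Ddr1, the epithelial receptor tyrosine kinase for collagens, was at 0 in Hep and covered 610 and 688 bp in early, 809 and 927 bp in intermediate, 347, 664 and 651 bp in late and 808 and 1302 bp in BEC libraries. Itga2, an integrin chain that binds collagens, was at 0 in Hep and covered 744 and 450 bp in early, 439 and 991 bp in intermediate, 399, 1155 and 764 bp in late and 1418 and 1551 bp in BEC libraries. Both receptors thus had H3K4me3 already in early cells, where Col1a1 and the upstream start of Col18a1 were at 0. Early minus Hep was 2.90 for Ddr1 (SE 0.49, limma adjusted p = 0.0103) and 2.77 for Itga2 (SE 0.55, adjusted p = 0.0259). Itga10, an integrin chain known from cartilage, went the other way in H3K27ac, with 0 bp in all 3 late libraries, against 475 and 567 bp in Hep libraries (late minus Hep -2.63, SE 0.37, adjusted p = 0.00323).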

How the data were processed

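Peak lists of 44 libraries (4 marks, 5 stages) were analysed. Per the labels' protocols, lightly fixed cells were profiled with pAG-Tn5. Bowtie2, Picard, deepTools, MACS2 and the build mm10 are named in the submitters' processing notes. Tool versions, settings, the peak filter and what the score measures were not given in the sources used here. Scores were taken as deposited by the authors and served only to rank peaks within a list in 1 alternative. Peaks outside chromosomes 1 to 19, X and Y (0.0902%) were dropped.

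Promoters of 35 collagens were placed at a RefSeq start (GRCm38.p6, the assembly of mm10), the one with most H3K4me3 over 11 libraries where several exist. Col1a1, Col4a3, Col9a3, Col12a1, Col14a1 and Col26a1 were placed at the gene end with more H3K4me3, Col2a1 by H3K4me1, and Col5a2 and Col22a1 were averaged over both ends. Over 10950 genes, 87.5% of ends so chosen lay within 2500 bp of the RefSeq start.

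Coverage as log2(bp + 100) was fitted with limma 3.58.1 (R 4.3.3), 11 libraries of a mark in one fit with 6 contrasts, without the replicate number. Counts and sequences were computed with Python 3.11.15, numpy 2.4.6 and pandas 2.3.3. On simulated data for late against early cells, changes of 2, 3 and 5 (log2) were recovered in 36, 74 and 96% of promoters for H3K4me3 (13476 promoters, 4 false calls), 40, 79 and 96% for H3K27ac (12570, 6 false) and 6, 7 and 54% for H3K4me1 (17633, 0 false). Whether the measured libraries, with their many zeros and short peaks, would give the same recovery was not tested. Alternatives were another pseudocount, window, filter, normalization, peak number, peak length, promoter position, the replicate block, and leaving out short-peak libraries or each library; testing every start was added after seeing the data.

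Every member is named; values per library are given for members called in any contrast, with H3K4me3 in every library of a stage, or among Col1a1, Col1a2, Col3a1, Col4a1, Col4a2 and Col18a1, and for at most 8 called genes of each partner list, of which 1 is not reported here. The members and lists were chosen with earlier results of these data known.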

Additional observations from a re-analysis of the deposited data

How the results depend on the processing

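Numbers of called collagens under the other settings are given by mark. The share of all promoters called was counted only for the main fit and, for H3K4me3 and H3K27ac, with every start as a feature. The other counts therefore have no background and do not show that collagens were called more often than other genes. With equal numbers of peaks per library, H3K4me3 gave 3 in BEC against Hep, 1 in BEC against late and 1 in late against Hep cells. With every start as a feature it gave 2 in BEC against Hep, 1 in late against Hep and 1 in late against early cells, and with the gene-end position it gave the same numbers. Peaks resized to 500 bp gave 3 in each of BEC against Hep, intermediate against early, late against Hep and late against early cells. A pseudocount of 500 bp gave 4 in BEC against Hep and 1 in late against Hep, quantile normalization gave 4 in BEC against Hep, 2 in intermediate against early, 3 in late against Hep and 3 in late against early. Without short-peak libraries there were 5 in BEC against Hep, 6 in late against Hep and 1 in late against early cells.

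For H3K27ac, equal peak numbers gave 1 in BEC against Hep and 0 in early against Hep, intermediate against early, late against Hep and late against early cells, as did quantile normalization. Every start gave 2 in intermediate against early and 2 in late against early. The gene-end position gave 4 in BEC against Hep, 1 in early against Hep and 5 in late against Hep. Resized peaks gave 0 in BEC against Hep, 1 in early against Hep, 1 in late against Hep and 2 in late against early. The larger pseudocount gave 0 in intermediate against early, 1 in late against Hep and 0 in late against early, and the smaller window gave 0 in both contrasts against early. For H3K4me1, equal peak numbers gave 2 in BEC against Hep and 0 in late against Hep; resized peaks gave 5 in BEC against Hep, 3 in late against Hep and 3 in late against early; the larger pseudocount gave 2 in BEC against Hep, 2 in early against Hep and 6 in late against Hep; quantile normalization gave 5 and 6 in BEC and late against Hep; the smaller window gave 2 and 5; without short-peak libraries late against Hep gave 0. The mean number of collagens with H3K27me3 was 7 with equal peak numbers, against 16, and the share of all genes was not counted with equal numbers. The cause of these shifts was not tested.

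Leaving out each library in turn gave, for H3K4me3, 0 to 8 in BEC against Hep, 0 to 4 in late against Hep, 0 to 2 in late against early and 0 to 1 in intermediate against early cells. For H3K27ac it gave 1 to 2 in early against Hep, 0 to 1 in intermediate against early, 0 to 1 in late against early, 0 to 2 in late against Hep and 0 to 2 in BEC against Hep. For H3K4me1 it gave 0 to 3 in early against Hep, 0 to 5 in late against Hep and 0 to 2 in BEC against Hep, and the other contrasts stayed at 0. In the stages with 2 libraries, deviations of libraries with the same number correlated by at most 0.0655 for any mark of the 3 and as low as -0.125. Such weak correlations do not settle whether libraries with the same number shared animals. With the replicate block, H3K4me3 gave 9 in BEC against Hep and 3 in late against Hep, H3K27ac gave 1 in BEC against Hep, 0 in intermediate against early, 1 in late against Hep and 0 in late against early, and H3K4me1 gave 0 in late against Hep; late 3 has a number of its own and is fitted exactly there. The gene-end position takes the upstream start of Col18a1, where H3K27ac differed by 1.47 in late against Hep and 2.38 in BEC against Hep cells, the opposite of the downstream start. In a window of 1000 bp, Col1a1 had no H3K4me3 in BEC and Hep libraries, and its difference there was 0. Read depth is unknown, so a missing peak sets no upper limit on a mark.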

Other observations

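H3K4me3 was also listed inside some collagen genes, away from the promoters used, and these regions were picked out after their values were seen. Inside Col5a3, whose promoter had no H3K4me3, a region at chr9:20803504-20805189 (mm10) had a peak in 7 libraries, both of each of the Hep, early and intermediate stages and late 2. Inside Col12a1, a region at chr9:79714484-79715278 had a peak in 10 libraries, all but late 1. Inside Col15a1, a region at chr4:47242244-47242587 had a peak in both Hep and both early libraries and in no other.

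Inside Col4a1, a region at chr8:11279309-11279888 had a peak in 9 libraries. Inside Col18a1, a region between the 2 starts at chr10:77146748-77147346 had a peak in 6 libraries, both Hep, early 2, both intermediate and BEC 2. Beyond the end of Col1a1 opposite to its H3K4me3 peaks, 2192 to 5056 bp away, 8 further H3K4me3 peaks were listed in 6 libraries. H3K27ac had 8 peaks in 7 libraries 2112 to 5532 bp beyond that end, against 1 peak in 1 library near the start coordinate.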
